A study of Mus musculus with 15 samples.

Results

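Ribosome-protected RNA from mouse eggs and embryos was examined for 7 genes of maternal mRNA tailing, storage and decay: Tut4, Tut7, Fip1l1, Upf2, Upf3b, Paip2b and Gigyf2. They were looked up by symbol among the 55490 rows of the gene table, and all 7 were present. The genes had been picked from a table whose counts in these 15 libraries were known, so their levels are a description, and the adjusted p-values below only place them among all genes tested. All 7 passed the filter on low counts that left 495 genes for testing, and 3 of them passed it through the 2 to 4 libraries in which they were high.

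Oocytes stop transcribing as they mature, so the egg and the early embryo run on stored mRNAs whose tails, caps and lifetimes are regulated. Short poly(A) tails that receive uridines are marked for decay, nonsense-mediated decay removes faulty and some normal transcripts, and proteins bound near the cap or the poly(A) tail hold translation down. EIF4E1B is an oocyte form of the cap-binding protein eIF4E, and its gene was the one deleted in this study.

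The study compared eggs and embryos of B6D2F1 females whose genotype was Eif4e1b Het or Eif4e1b KO, all of which carried Rpl22 HA, a large-subunit ribosomal protein with an HA tag. Ribosomes were captured through the tag after RNase I digestion, and the protected fragments were sequenced. The 15 libraries were M2 eggs, which are mature and unfertilized (2 Het and 2 KO), PN5 zygotes, at a late pronuclear stage (3 Het and 3 KO), and early 2-cell embryos (3 Het and 2 KO). About 200 eggs or zygotes were pooled for a library at the first stages, and about 100 embryos at the early 2-cell stage. The Het controls thus carry the Eif4e1b deletion on 1 allele and the tag as well, and the genotype is that of the female; the labels do not give the sire or the genotype of the embryo itself. Nothing in the labels says that replicates came from separate animals or pools, so the p-values reflect only how far these libraries differ among themselves, which may be technical.

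The libraries were shallow for messenger RNA. Totals ran from 93222 to 1201146 counts (median 409584), but cytosolic ribosomal RNA took 58.9% to 91.9% and mitochondrial ribosomal RNA 5.53% to 36.0%, the latter maximum in PN5 KO replicate 3. Protein-coding genes received 1059 to 47397 counts per library, or 0.696% to 5.10%, spread over 318 to 1678 genes. Scaling factors of the trimmed mean of M-values (TMM) ranged from 0.39 in PN5 Het replicate 3 to 2.87 in early 2-cell Het replicate 3. Eif4e1b itself had 0 counts in all 15 libraries, Het included, so its level could not check the genotype labels. Of 17 oocyte and egg markers 8 had a count (155 counts in all), and Zp1, Zp2, Zp3, Oosp1, Padi6, H1f8, Bcl2l10, Figla and Tle6 were at 0; of 13 early 2-cell markers 3 had a count (9 in all), with every Zscan4 gene listed at 0. Of 18 cumulus and granulosa markers 6 had a count (650 in all), sperm markers had 0 of 6, and blood markers had 1 count.

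Levels below are in CPM, counts scaled to a common library total, with TMM-adjusted library sizes. They are not divided by transcript length, so a level is compared across libraries within a gene and not between genes. In pooled samples, fewer embryos and less RNA per embryo cannot be told apart. A count of 0 allows up to 3 counts, a floor that covers counting error only and ranges from 2.12 CPM in M2 KO replicate 2 to 29.5 CPM in early 2-cell Het replicate 2. The sources used here do not say how reads matching several places were counted, so reads shared between the related pairs Tut4 and Tut7, Paip2 and Paip2b, Upf3a and Upf3b, or Gigyf1 and Gigyf2 are uncertain.

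Tut4 and Tut7 encode terminal uridylyltransferases, which add uridines to the 3′ ends of RNAs with short poly(A) tails. Tut4 (ENSMUSG00000034610, chromosome 4, 108459410 to 108559415, GRCm38) had 232 counts in 9 libraries. In M2 eggs it had 9 and 26 counts in Het and 0 and 101 in KO. In PN5 zygotes it had 58, 4 and 0 counts in Het and 5, 25 and 3 in KO. In early 2-cell embryos the 3 Het libraries had 0, and the KO libraries 0 and 1. The M2 KO replicates lay at the lowest and the highest value of their stage, and 43.5% of all Tut4 counts came from M2 KO replicate 2. Group means were 30.7 ± 25.5 CPM (SD, n = 2) in M2 Het and 35.7 ± 50.5 (n = 2) in M2 KO. In PN5 they were 18.6 ± 28.1 in Het and 18.9 ± 20.6 in KO (n = 3 each), so the genotypes overlapped at both stages.

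Tut7 (ENSMUSG00000035248, chromosome 13, 59771876 to 59823169) had fewer counts, 168, but in 13 libraries. It had 15 and 3 counts in M2 Het, 2 and 33 in M2 KO, 17, 2 and 4 in PN5 Het, and 5, 15 and 59 in PN5 KO. PN5 KO replicate 3 alone held 35.1% of them, and at both stages the genotypes overlapped. In early 2-cell embryos the Het libraries had 4, 1 and 8 counts and both KO libraries had 0. The Het mean, 21.7 ± 15.3 CPM (SD, n = 3) from 13 counts, was 1.86-fold the floor of 11.7 CPM over the KO libraries. That ratio takes the Het mean as exact, so it is no firm bound on the difference. The highest Het value, 39.0 CPM in replicate 1, came from 4 counts. KO against Het did not pass by edgeR's quasi-likelihood test, with an unadjusted p of 0.0348 and a Benjamini-Hochberg adjusted p of 0.888. Across the 15 libraries the levels of the paired uridylyltransferases were nearly unrelated, with Pearson's r of 0.106 on log2(CPM + 1), a description over libraries that share their stage and depth.

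Fip1l1 encodes a subunit of the cleavage and polyadenylation specificity factor that binds the poly(A) polymerase. The gene (ENSMUSG00000029227, chromosome 5, 74535438 to 74598790) had 210 counts in 13 libraries. M2 Het had 29 and 6 counts and M2 KO 1 and 32, while PN5 Het had 14, 46 and 10 and PN5 KO 50, 4 and 9. Early 2-cell Het had 0, 1 and 5 counts, and early 2-cell KO 3 and 0. PN5 KO replicate 1, at 116 CPM, lay above all others and the other PN5 KO libraries, at 6.75 and 8.72 CPM, lay below all PN5 Het libraries. The means, 34.2 ± 22.0 CPM in PN5 Het and 43.9 ± 62.7 in PN5 KO (SD, n = 3 each), differed by less than that spread. Fip1l1 was the most evenly distributed member after Gigyf2, with 23.8% of its counts in its top library.

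Upf2 and Upf3b encode nonsense-mediated decay factors: UPF2 bridges the helicase UPF1 to UPF3B, which contacts the exon junction complex. Upf2 (ENSMUSG00000043241, chromosome 2, 5951447 to 6056703) had 586 counts in only 4 libraries, namely 350 in M2 KO replicate 2, 131 in PN5 Het replicate 1, and 52 and 53 in PN5 KO replicates 1 and 2. These 4 lay between 89.5 and 248 CPM, while the other 11 had 0 counts, including libraries of the same group; PN5 KO replicate 3, for example, had 0 with a floor of 2.91 CPM. Upf3b (ENSMUSG00000036572, chromosome X, 37091678 to 37110471) had 230 counts in 2 libraries, 98 in M2 KO replicate 2 and 132 in PN5 Het replicate 2. M2 KO replicate 2 was the only library holding both. Within M2 KO, PN5 Het and PN5 KO, counts of Upf2 were thus present in some replicates and at 0 in others.

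Paip2b encodes an inhibitor of the poly(A)-binding protein, which it displaces from the poly(A) tail. The gene (ENSMUSG00000045896, chromosome 6, 83806058 to 83831741) had 250 counts in 3 libraries: 29 in M2 Het replicate 2, 36 in PN5 Het replicate 2 and 185 in PN5 KO replicate 3. The last of these held 74% of the counts, at 179 CPM, against 54.3 and 44.0 CPM in the other two. None of the 5 early 2-cell libraries had a count of Paip2b, Upf2 or Upf3b. Those libraries held 13267 protein-coding counts in all. Of the 495 genes tested, 76.4% had a negative log2 fold change from PN5 to early 2-cell embryos. In the fit between genotypes at the early 2-cell stage, the median log2 fold change of these 495 genes was 0, with 37.98% below 0. Upf2, Upf3b and Paip2b, with no count in either genotype, also had a value of 0 in that fit. So did Acbd3, Canx and Dek, among other genes tested. How many genes had no count there was not counted directly. A value of 0 was common, so the zeros cannot be called particular to these genes. Against a floor of 3.16 CPM over those 5 libraries, the PN5 mean was at least 17.2-fold higher for Upf2 (54.2 ± 60.3 CPM, SD, n = 6), at least 11.8-fold for Paip2b and at least 8.53-fold for Upf3b. These bounds hold for TMM-scaled CPM only, on which the median log2 fold change of all genes tested was -2.01 between these stages. Bounds on the share of protein-coding counts were not computed. The Upf2 bound rests on 3 of the 6 PN5 libraries and is 12.96-fold without PN5 KO replicate 1. The Upf3b bound rests on 1 PN5 library. The Paip2b bound rests on 2, and without PN5 KO replicate 3, left out after the data were seen, it is 2.79-fold; none of these stage differences passed the test across all genes.

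**Figure D1:**
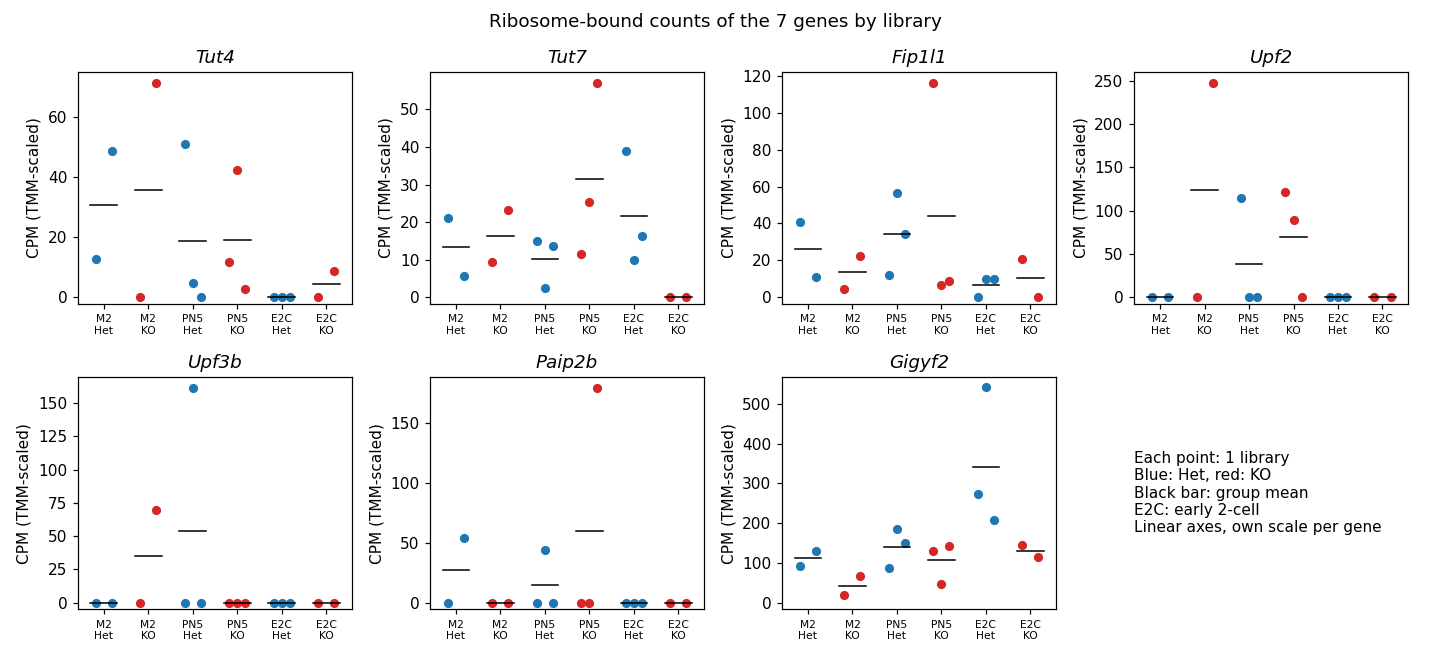
Level of each of the 7 genes in the 15 libraries, in TMM-scaled CPM, grouped by stage and female genotype, with 1 point per library. Gigyf2 has a count in all 15 libraries, whereas Upf2, Upf3b and Paip2b are at 0 in most and in all 5 early 2-cell libraries.

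Gigyf2 encodes a partner of the cap-binding repressor 4EHP, with which it blocks translation of bound mRNAs. The gene (ENSMUSG00000048000, chromosome 1, 87326931 to 87450810) had the most counts of the 7, 978, and a count in all 15 libraries. M2 Het libraries had 65 and 70 counts (91.4 and 131 CPM) and M2 KO 4 and 94 (18.7 and 66.5 CPM). PN5 Het had 100, 151 and 44 counts (87.8, 185 and 150 CPM), and PN5 KO had 56, 27 and 148 (130, 45.6 and 143 CPM). Early 2-cell Het had 28, 55 and 102 counts (273, 541 and 208 CPM), and early 2-cell KO had 21 and 13 (146 and 116 CPM). In M2 eggs and in early 2-cell embryos both KO libraries lay below every Het library, whereas in PN5 the genotypes overlapped. Of the 495 genes tested, 116 (23.4%) were free of overlap in M2 and 50 (10.1%) in early 2-cell embryos, in either direction. The separation of Gigyf2 depended on the scale: with CPM on unscaled library totals the genotypes overlapped at M2 (67.4 to 159 in Het, 10.3 to 88.2 in KO) and at the early 2-cell stage (184 to 597 in Het, 135 to 223 in KO).

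As a share of protein-coding counts, Gigyf2 stood highest in early 2-cell embryos. The 3 Het libraries were at 2.64%, 3.32% and 1.31%, and the KO libraries at 1.29% and 1.15%, the last from 13 counts with a 95% Wilson interval of 0.671% to 1.95%. The 4 M2 libraries lay between 0.0667% and 0.314%, and the 6 PN5 libraries between 0.229% and 0.511%. The mean share was 0.223% ± 0.117 in M2 (SD, n = 4), 0.366% ± 0.107 in PN5 (n = 6) and 1.94% ± 0.982 in early 2-cell embryos (n = 5). With the counts of the early 2-cell libraries pooled it was 1.65%. Those libraries held 1059 to 7795 protein-coding counts from about 100 embryos each, against 5997 to 47397 from about 200 eggs or zygotes elsewhere. Stage, input and depth thus cannot be told apart. All 5 early 2-cell libraries lay above every M2 and PN5 library, a pattern held by 5 of the 425 protein-coding genes tested (1.18%): Anln, Chd8, Creb5, Gigyf2 and Rab11fip5. In CPM the stages overlapped, since early 2-cell libraries ran from 116 to 541 (median 208) and PN5 libraries from 45.6 to 185. The other 6 genes together had 734 of 96561 protein-coding counts in M2, 919 of 145934 in PN5 and 23 of 13267 in early 2-cell embryos. Their mean share was 0.472% ± 0.559 in M2 (SD, n = 4), 0.602% ± 0.229 in PN5 (n = 6) and 0.188% ± 0.113 in early 2-cell embryos (n = 5), and the libraries of the 3 stages overlapped. M2 KO replicate 2 was the highest of all, at 1.30%.

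**Figure D2:**
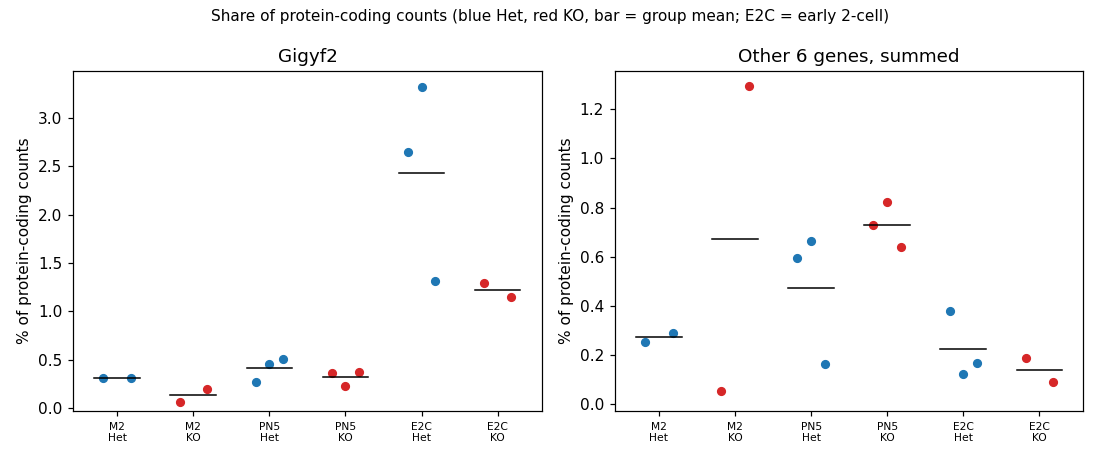
Share of protein-coding counts taken by Gigyf2 and by the other 6 genes summed, in percent, with 1 point per library by stage and genotype and a bar at each group mean. Gigyf2 is at 1.15% to 3.32% in the 5 early 2-cell libraries and at no more than 0.511% elsewhere.

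The 7 genes differed in how evenly their counts were spread. Their median was 9 libraries with a count, and 3 of the 7 (Upf2, Upf3b and Paip2b) had counts in 4 libraries or fewer. Among the 171 protein-coding genes with totals in the same range, 168 to 978 counts, the median was 11 libraries, and 12.3% had counts in 4 or fewer. The top library held a median of 43.5% of a member's counts and 29.3% of those of the 171 genes. Only Gigyf2 was counted in all 15 libraries, as were 31 of the 171 (18.1%).

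**Figure D3:**
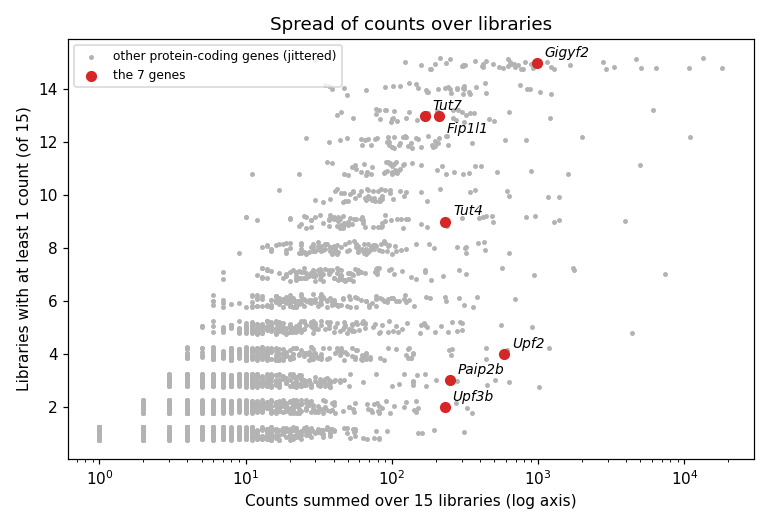
Number of libraries with a count against total counts, with the 7 genes named among protein-coding genes of the table. Upf2 (4 libraries), Paip2b (3) and Upf3b (2) lie low for their totals, and Gigyf2 lies at 15.

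Loss of Eif4e1b in the female was not accompanied by a change in any of the 7 genes that passed the test. KO was compared with Het within each stage and averaged over the stages, with edgeR's quasi-likelihood test and Benjamini-Hochberg adjustment over the 495 genes. The test called 0 of 495 genes (0%) in each of these 4 comparisons, with 6 genes at an unadjusted p under 0.05 in M2, 35 in PN5, 25 in early 2-cell embryos and 20 in the average. DESeq2 called 2, 2, 4 and 2 genes and limma-voom 0 in each, with none of the 7 among them, though DESeq2 gave no adjusted p for Upf3b and Paip2b.

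Gigyf2 had the most counts behind its comparison. Its log2 fold change, KO over Het, was -1.35 (SE 1.13) in M2 eggs, -0.40 (SE 0.90) in PN5 zygotes and -1.38 (SE 1.07) in early 2-cell embryos. The adjusted p-values from edgeR's quasi-likelihood test were 1, 1 and 0.986. Averaged over the stages it was -1.04 (SE 0.60), with an unadjusted p of 0.0992 and an adjusted p of 1.00. Leaving out 1 library moved the M2 value between -2.55 (without KO replicate 2) and -0.74 (without KO replicate 1). The PN5 value turned to 0.13 when libraries were scaled by their totals alone. The difference in KO effect between stages did not pass for Gigyf2 either (adjusted p of 1.00 for PN5 minus M2 and for early 2-cell minus PN5, from the same edgeR test).

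For the others the KO values were wide. In M2 eggs the log2 fold change was 0.26 (SE 2.16) for Tut4, 0.32 (SE 1.57) for Tut7 and -0.85 (SE 1.75) for Fip1l1. Tut7 turned to -0.09 when libraries were scaled by their totals alone. Tut4 had no KO count left without M2 KO replicate 2, the library that held its 101 counts. The M2 KO mean was 51.4-fold the Het floor for Upf2 and 14.4-fold for Upf3b, both through M2 KO replicate 2 alone, with replicate 1 at 0. For Paip2b the M2 Het mean was 14.7-fold the KO floor, through M2 Het replicate 2 alone. These ratios take the higher mean as exact, so they are no firm bounds on a genotype difference. All 7 had an adjusted p of 1 in edgeR's quasi-likelihood test. Libraries of the M2 genotypes did not overlap for 1 of the 7 (Gigyf2), against 116 of 495 genes tested (23.4%).

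In PN5 zygotes the log2 fold change was 1.60 (SE 1.31) for Tut7, 1.99 (SE 2.51) for Paip2b, 0.84 (SE 2.23) for Upf2, 0.35 (SE 1.42) for Fip1l1 and -0.02 (SE 1.73) for Tut4, which was above 0 under each other scaling, up to 0.39. Adjusted p-values from edgeR's quasi-likelihood test were 1 for these 5 genes. Tut7 was at 0.84 without PN5 KO replicate 3, and Upf2 at 0.19 without PN5 KO replicate 1, while leaving out PN5 Het replicate 1 left Upf2 with no Het count. The PN5 Het mean of Upf3b was 36.9-fold the KO floor through PN5 Het replicate 2 alone, which is no firm bound on a genotype difference. By edgeR's quasi-likelihood test, KO against Het for Upf3b had an unadjusted p of 0.0329 and an adjusted p of 0.696. In the same test its difference in KO effect between PN5 and M2 had an adjusted p of 0.848. Without PN5 KO replicate 3, Paip2b had no KO count left. The genotypes were free of overlap for 0 of the 7, against 29 of 495 genes (5.86%). Cumulus and granulosa markers together held 0% to 0.0298% of protein-coding counts in PN5 Het and 0.0847% to 0.888% in PN5 KO, and 0.0404% to 0.765% in M2 Het and 0% to 0.116% in M2 KO. Cyp11a1 held 561 of their 650 counts and 12 of the 18 were at 0 (all but Cyp11a1, Inhba, Hsd3b1, Foxl2, Cyp19a1 and Ptx3); their part in the values of the 7 genes was not tested.

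In early 2-cell embryos Fip1l1 differed by 0.57 (SE 1.83), and Tut4 had 1 count in KO and 0 in Het. Gigyf2 and Tut7 were the 2 of the 7 whose genotypes did not overlap, against 50 of 495 genes (10.1%). For Tut7 both KO libraries had 0 counts, with floors of 20.8 and 26.8 CPM, which lie above the 9.85 and 16.3 CPM of Het replicates 2 and 3, so these libraries are not separated at this depth, library by library. The difference in KO effect between early 2-cell and PN5 for Tut7 had an adjusted p of 0.840 in edgeR's quasi-likelihood test.

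**Figure D4:**
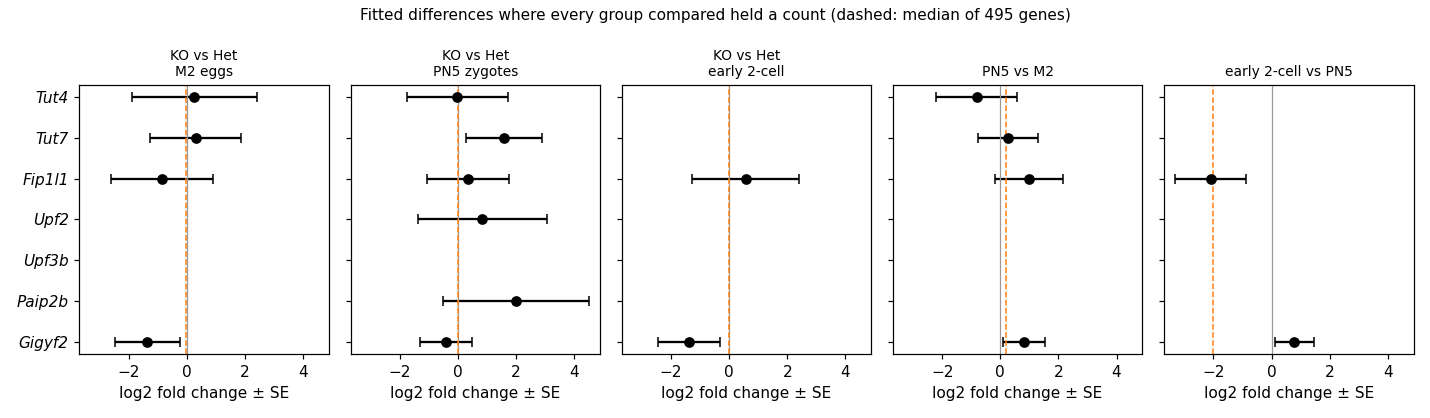
Log2 fold changes of the 7 genes with standard errors from the edgeR fit, by comparison, shown where every group compared has a count. The values run from -2.10 for Fip1l1 in early 2-cell against PN5 to 1.99 for Paip2b in PN5 KO against Het, and the dashed line marks the median of all genes tested.

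From M2 eggs to PN5 zygotes none of the 7 passed. Averaged over genotypes, PN5 over M2, the log2 fold change was 0.81 (SE 0.73) for Gigyf2, 0.99 (SE 1.15) for Fip1l1, 0.26 (SE 1.03) for Tut7 (-0.06 with library totals alone) and -0.82 (SE 1.38) for Tut4, with an adjusted p of 1.00 each by edgeR's quasi-likelihood test. That test called 0 of 495 genes (0%), with 22 at an unadjusted p under 0.05, and DESeq2 called 1 and limma-voom 0. The median over all genes tested was 0.19.

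From PN5 zygotes to early 2-cell embryos most genes tested had a negative log2 fold change. So did 6 of the 7, all but Gigyf2, but the direction was not firm for Upf3b and Tut7. Upf3b had -3.94 with an SE of 1.016e+04 and an adjusted p of 0.9998 in edgeR's quasi-likelihood test. Tut7, at -3.03, had no count in early 2-cell KO. Its mean fell from 20.85 CPM in PN5 to 13.04 in early 2-cell embryos. Its mean share of protein-coding counts rose from 0.06758% to 0.1082%. The median of all 495 genes was -2.01, 76.4% were below 0, and edgeR's quasi-likelihood test called 4 (0.808%), all lower: Cenpe, Ddx21, Nefh and AC161374.3. This count was 0 without any single 1 of 11 libraries and 1 without PN5 Het replicate 1; it was 8 without PN5 Het replicate 3, 12 without PN5 KO replicate 2 and 7 without early 2-cell Het replicate 2. By limma-voom it was 21. None of the 7 was called. Fip1l1, at -2.10 (SE 1.21, adjusted p of 0.249), was 0.09 below the median of all genes. With DESeq2's size factors it was -0.96 and with library totals -0.91, which is 0.29 and 0.74 above the median under those scalings. It was -0.88 without PN5 KO replicate 1 and -4.93 without early 2-cell KO replicate 1, which leaves its KO group at 0. Adjusted p-values were 0.167 for Upf2, 0.201 for Tut4, 0.211 for Paip2b and 0.227 for Tut7, whose early 2-cell counts were 0, 1, 0 and 13. No member separated all early 2-cell from all PN5 libraries in CPM, against 25 of 495 genes (5.05%).

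Gigyf2 had a positive value here, 0.78 (SE 0.68, adjusted p of 0.445 in the edgeR test), which is 2.79 above the median of all genes. With DESeq2's size factors in the same test it was 1.77 (adjusted p of 0.159), with library totals 1.46 (0.304) and with protein-coding counts as library size 0.85 (0.424). The median of all genes moved with the scaling too, to -1.24, -1.64 and -1.89, and Gigyf2 lay 2.74 to 3.11 above it. The value also moved with the filter, to 0.25 with no low-count filter and 1.87 (adjusted p of 0.0536) over genes with a mean of at least 20 counts. DESeq2's Wald test called Gigyf2 higher in early 2-cell embryos (log2 fold change 1.77, adjusted p of 0.000577), among 53 genes it called. The edgeR test called 4 of 495 genes in this comparison. Over the 25 settings run, the adjusted p of Gigyf2 in the test of each setting reached 0.9998, and Gigyf2 was called in 1.

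The wider list of tailing, decay and storage genes held 161 genes, of which 65 had a count and 41 had 10 or more; the 7 genes took 2654 of the list's 4204 counts. Over the whole gene table, 3794 of 21443 protein-coding rows had a count in any library. Besides the 7, the tested genes were Cnot1, Lsm14a, Paip2, Rbbp6, Tnrc6b and Ybx1, and 0 of the 13 were called higher or lower in any of the 6 comparisons by edgeR's quasi-likelihood test. Among uridylation and noncanonical tailing genes, Mtpap, Tent4a and Tent5b had 10, 8 and 2 counts beside the 400 of Tut4 and Tut7. Of the cleavage and polyadenylation genes, Rbbp6, a subunit of the cleavage machinery, was counted in all 15 libraries (318 counts), Pcf11 had 37 counts and Pabpn1 21. Rbbp6 lay at 58.3 ± 3.01 CPM in M2 Het and 59.7 ± 11.6 in M2 KO (SD, n = 2 each), and at 14.3 ± 13.5 in PN5 Het and 31.2 ± 14.9 in PN5 KO (n = 3 each). In early 2-cell embryos it lay at 27.1 ± 20.2 in Het (n = 3) and 34.2 ± 10.5 in KO (n = 2).

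In nonsense-mediated decay, Smg1, the kinase that phosphorylates UPF1, had 63 counts in 9 libraries and Smg6, its endonuclease, 34 in 4, while Upf1 and Upf3a were at 0. Of the poly(A)-binding regulators, Paip2, the paralog of Paip2b, had 100 counts in only 3 libraries, all PN5 (96 in 2 Het libraries, 4 in 1 KO library). Larp4b had 25 counts and Paip1 10, and Pabpc1 and Pabpc1l were at 0. The 4EHP gene Eif4e2 and Zfp598, known partners of GIGYF2, and Eif4enif1, of the same class, were also listed at 0, and Gigyf1, Eif4e3 and Eif4e had 24, 24 and 16 counts. Most protein-coding rows had no count at this depth, so a 0 does not show that an mRNA was absent from ribosomes. Of the deadenylation class, Cnot1, the scaffold of the CCR4-NOT complex, had 55 counts in 9 libraries, and Cnot3 and Cnot7 30 each. The storage class was led by Tnrc6b (157 counts in 15 libraries), Ybx1 (88, in 4 PN5 libraries alone) and Lsm14a (33), with Cpeb1 and Ybx2 at 0. The decapping and exonuclease class had 84 counts in all, of which Xrn2 had 51 and Xrn1, the main cytoplasmic exonuclease, 28.

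Other genes followed the sparse members closely across the 15 libraries. The 2 tested genes with the highest Pearson's r of log2(CPM + 1) were Pole3 (0.998) and Npm2 (0.973) for Upf3b, Kmt2a (0.928) and Chd6 (0.870) for Upf2, and Jun (0.885) and Cep162 (0.866) for Tut4. For Paip2b they were Fam32a (0.813) and Pfdn4 (0.804), and for Tut7 Stag1 (0.794) and Septin7 (0.763). Fip1l1 was most like Luc7l3 (0.695) and Fam107b (0.693), and Gigyf2 like Plcd4 (0.642) and Cyth3 (0.625). These points share library and depth, and a gene with counts in 2 to 4 libraries matches others that are high in the same ones. Among the 7, Tut4 and Upf2 were the most alike (0.693) and Tut4 and Gigyf2 the least (-0.369).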

How the data were processed

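The estimated counts came from a single gene table that the authors deposited, as unscaled whole numbers. The tools named are STAR 2.7.6a, StringTie 2.1.4, deepTools 3.5.1 and cutadapt, with the GRCm38 build, per the submitters' processing notes. The derivation of the counts was not given in the sources used here. Counts were rounded on reading, which changed none. Coordinates and biotypes came from RefSeq's GRCm38.p6 annotation (39101 rows matched by symbol, 164 by an older symbol, 16225 unmatched). edgeR 4.0.16 (R 4.3.3) fitted the 6 group means over all 15 libraries with filterByExpr (minimum count 10; 495 genes, 425 protein-coding), TMM scaling, a robust quasi-likelihood fit with 9 residual degrees of freedom, and Benjamini-Hochberg adjusted p under 0.05. SEs were worked back from the fold change and F. Folds against a group at 0 used a floor of 3 counts over the group. They took the mean of the other group as exact, so "at least" covers counting error in the group at 0 only. Intervals and floors cover counting error only; reads carry no molecular identifiers. Alternatives were DESeq2 1.42.0 and limma 3.58.1 (voom), other scalings, other filters, replicate number as a block, the groups compared alone, libraries of at least 2000 protein-coding counts, and leaving out each library. The pipeline was run on simulated data with large changes placed in all KO libraries, for the KO effect averaged over stages only. That run does not bear on the comparisons within or between stages. Named genes were the 7, up to 3 other genes with the highest counts per class of the wider list, any called gene of it, and the 2 most alike per member; others are named because they were called or shared a pattern, after their values were seen. The 7 genes and the lists were chosen with earlier results of these data known.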

Additional observations from a re-analysis of the deposited data

How the results depend on the processing

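Counts of called genes depended on the tool and the filter; the cause was not tested. The count for early 2-cell against PN5, 4 genes, became 53 with DESeq2's Wald test (29 higher, 24 lower), 21 with limma-voom (7 higher, 14 lower), 16 with no low-count filter (5763 genes tested), and 0 with library totals, with the groups compared alone and with replicate number as a block. Elsewhere, where edgeR called 0, DESeq2 called 2 in M2, 2 in PN5, 4 in early 2-cell, 2 in the average over stages and 1 for PN5 against M2. No filter gave 1 in early 2-cell KO against Het, 1 in the average and 2 for the difference in KO effect, early 2-cell minus PN5; the groups compared alone gave 1 in early 2-cell (46 genes tested). Leaving out 1 library gave 0 to 12 for early 2-cell against PN5 (12 without PN5 KO replicate 2), 0 to 1 for early 2-cell KO against Het (1 without early 2-cell Het replicate 2) and 0 to 0 elsewhere. Of the 7 genes, Gigyf2 was called in 1 alternative (DESeq2) and Upf2 in 1 (no filter, adjusted p of 0.0396, edgeR), both for early 2-cell against PN5.

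The labels do not say whether replicate numbers pair the libraries. As deviations from group means, Het and KO of 1 number correlated at -0.16 in M2, at -0.15, -0.32 and 0.10 in PN5 and at -0.04 and 0.03 in early 2-cell embryos. In M2 both numbers give the same value by construction, since deviations from the mean of a pair mirror each other. With so few libraries per group, these values cannot decide whether the replicate numbers pair libraries. With the number as a block, the sign turned for Tut4 in M2 (-1.12) and PN5 (1.16), Fip1l1 in PN5 (-0.95) and in the average (-0.36), and Tut4 (0.42) and Tut7 (-0.11) for PN5 against M2. limma-voom turned Tut4 in M2 (-0.24) and PN5 (0.14) and Fip1l1 in PN5 (-0.61) and the average (-0.36). Library totals turned Tut7 in M2 (-0.0889), Tut4 in PN5 (0.0933), Gigyf2 in PN5 (0.13), Fip1l1 in the average (-0.12) and Tut7 for PN5 against M2 (-0.0641). DESeq2's size factors turned Tut4 in PN5 (0.39) and Fip1l1 in the average (-0.0533), and its Wald test the same results (0.41 and -0.0568). Protein-coding library sizes (0.28) and libraries of at least 2000 protein-coding counts (0.20) turned Tut4 in PN5. That depth minimum leaves 1 early 2-cell library, so comparisons that need early 2-cell KO could not be run. Without single libraries (where 1 can leave a group at 0, so that the extremes are no measure of size), KO against Het ranged from -6.89 to 1.52 for Tut4, -0.51 to 1.54 for Tut7 and -2.41 to 0.35 for Fip1l1 in M2, and from -1.40 to 2.65 for Tut4, -2.11 to 1.21 for Fip1l1, -5.94 to 7.91 for Paip2b and -0.68 to 0.10 for Gigyf2 in PN5. It ranged from -5.09 to 1.50 for Fip1l1 in early 2-cell embryos and from -1.86 to 0.42 in the average, and PN5 against M2 from -2.15 to 2.76 for Tut4, -0.12 to 0.87 for Tut7 and -0.24 to 1.77 for Fip1l1. Early 2-cell over PN5 levels moved from -0.68 to 0.68 for Tut7 and from 1.05 to 2.41 for Gigyf2 when CPM was replaced by the share of protein-coding counts. Gigyf2 kept its sign in M2, early 2-cell and the average in every alternative run. Depth limits the early 2-cell values, since 4 of those 5 libraries had under 2000 protein-coding counts.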
